A study of Mus musculus with 4 samples.

Results

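The genes described here encode adhesion molecules through which blood leukocytes and platelets attach to the vessel wall, and they were followed in the mouse hippocampus after repeated social defeat stress (R-SDS). The list holds 10 genes, Icam1, Vcam1, Icam2, Sele, Selp, Vwf, Podxl, Itga4, Itgb2 and Itgal, and 9 of them had a row with a single gene symbol on the array, out of 19938 genes with such a row. Selp, the P-selectin gene, was not analysed here. The list was drawn up with earlier results of these 4 arrays known, and the row of a gene was chosen by its mean log2 value over the arrays; each of the 9 genes had 1 row, so this choice decided nothing. The differences of these genes between the groups are therefore given as a description. They are not tests of the list.

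RNA came from dissected hippocampi of male C57BL/6JJmsSlc mice aged 11 to 12 weeks. The R-SDS group (2 mice by the methods of the study, 1 array each) had met an aggressive ICR male for 10 min on each of 10 days and lived next to it behind a divider in between. The Control group (2 samples) was kept in divided cages in pairs that changed every day, without defeat. The study calls the R-SDS mice on its arrays susceptible, meaning that they avoided an ICR mouse, while the sample labels give only the stress. Values are log2 intensities normalised with RMA, so a difference of 1 is a doubling, and they carry no detection call. Whole tissue was measured, and more vessel or blood cells in a sample cannot be told apart from more RNA per cell.

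Leukocytes leave the blood in steps. Selectins on activated endothelium (E-selectin from Sele, P-selectin from Selp) slow the cells so that they roll, and members of the immunoglobulin family then hold them fast. ICAM-1 and ICAM-2 bind the leukocyte integrin LFA-1, which is built from the chains encoded by Itgal and Itgb2, and VCAM-1 binds VLA-4, which pairs the chain of Itga4 with that of Itgb1. Von Willebrand factor (Vwf) is stored with P-selectin in endothelial granules and tethers platelets, and podocalyxin (Podxl) is a sialomucin related to CD34 on the luminal face of endothelium. The 3 integrin genes thus encode chains of leukocyte integrins, and in brain Itgb2 is also a gene of microglia. Not all of the list therefore belongs to the vessel wall itself.

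The 4 arrays correlated at 0.988 to 0.996 over the 21789 tested rows (Pearson, across rows, which are not independent replicates). The interquartile range of all values was 3.34 and 3.37 on the arrays numbered 1 and 3.06 and 3.11 on those numbered 2, so differences are also given within each number. All 13 hippocampal neuron genes of a fixed list were measured, with a mean log2 value between 9.05 and 9.33 per array. All 9 adhesion genes had means above the lower quartile of the tested rows (4.99). Those of Itgal (5.40), Sele (5.52) and Icam2 (5.73) lay below the median of all values on every array (5.91 to 6.06). R-SDS 1 stood apart through choroid plexus genes. Of the 14 listed, 12 were measured, and their linear values summed to 3370 (Control 1) and 674 (Control 2), with 14050 for R-SDS 1 and 961 for R-SDS 2.

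All 9 measured adhesion genes averaged higher after defeat, as did 52.85% of all tested rows. Their median log2 difference was 0.24, against a median of 0.0072 over all tested rows. The groups did not overlap for 4 of the 9 (Vwf, Podxl, Itga4 and Itgal), each higher in both R-SDS samples, where 9.41% of all rows were higher and 9.06% lower without overlap. No member was lower without overlap. In all, 6 members (Vwf, Podxl, Vcam1, Itga4, Itgal and Itgb2) were higher within both replicate numbers, where 27.3% of all rows were higher and 22.7% lower in both. Vwf and Podxl exceeded the thresholds used by the study, a log2 difference above 0.5 with an unadjusted p under 0.05, as did 0.147% of all rows in the higher direction. The list was drawn up with these values known, so nothing is read from these shares. In limma with Benjamini-Hochberg adjustment, 0 members and 0% of all rows had an adjusted p under 0.05, and the adjusted p of each member was 1. At an unadjusted p under 0.05, limma counted 2 members and 221 rows. The methods' t-test counted 0 members, and its share of all rows at that p is not given here.

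**Figure D1:**
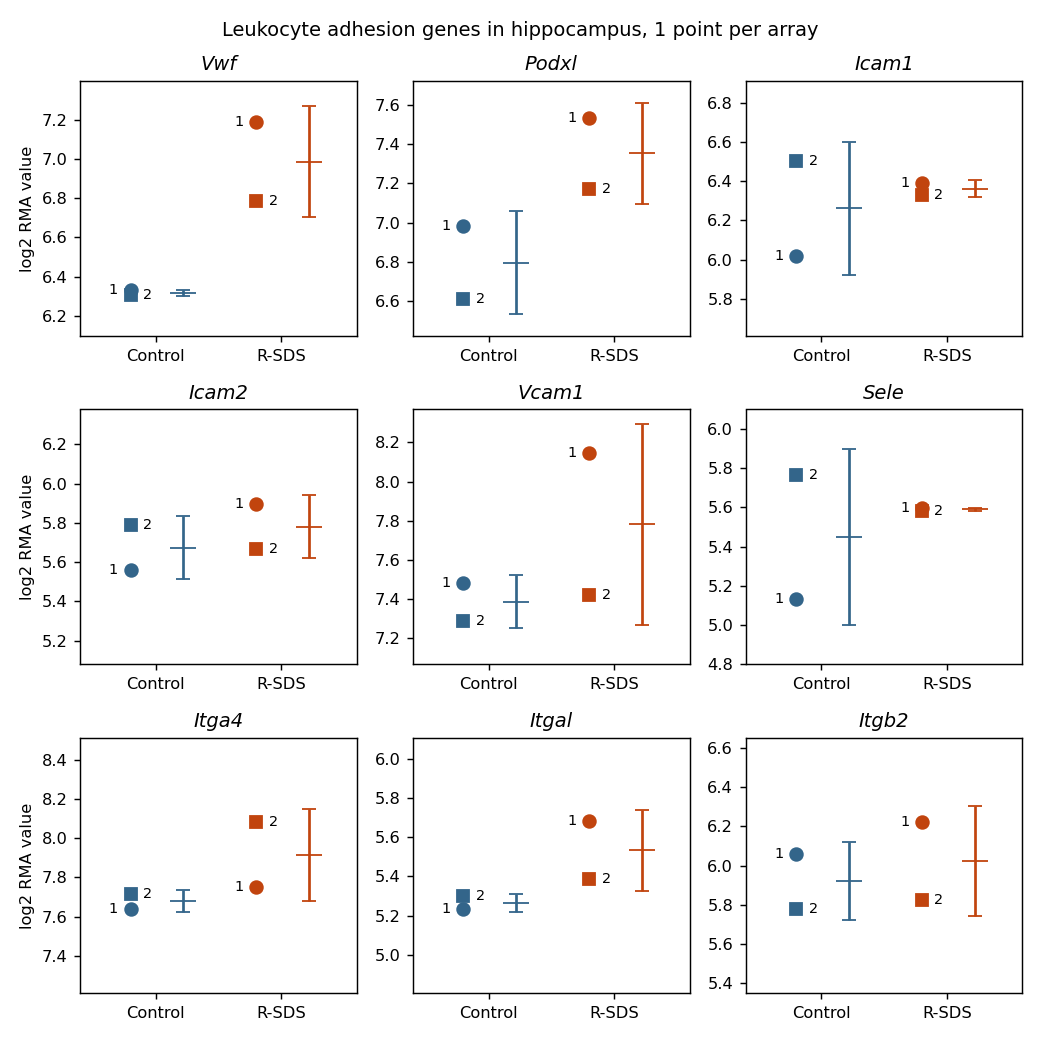
The 9 measured adhesion genes by group, on vertical axes of log2 RMA values that cover an equal span in every panel, each array drawn as a point labelled with its replicate number (circles number 1, squares number 2), and bars for the mean and SD of each group (n = 2). The stressed samples lie above the controls for Vwf, Podxl, Itga4 and Itgal, by 0.03 only for Itga4, and Control 1 is the lowest point for Sele and Icam1.

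Vwf showed the widest gap between the groups. It read 6.33 (Control 1), 6.31 (Control 2), 7.19 (R-SDS 1) and 6.79 (R-SDS 2). The controls lay within 0.02 of each other, and the lower R-SDS sample stood 0.46 above the higher control. Group means of 6.32 ± 0.02 and 6.99 ± 0.28 (SD, n = 2 each) gave a log2 difference of 0.67 (SE 0.17), a ratio of 1.59. Only 0.225% of all rows had a larger difference. The difference was 0.86 within number 1 and 0.48 within number 2, and it was 0.47 without R-SDS 1, below the threshold of 0.5, and 0.87 without R-SDS 2.

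Podxl had the same difference in both numbers. It read 6.98 (Control 1), 6.61 (Control 2), 7.53 (R-SDS 1) and 7.17 (R-SDS 2). R-SDS 1 exceeded Control 1 by 0.55 and R-SDS 2 exceeded Control 2 by 0.56, although the lower R-SDS value stood only 0.19 above the higher control. Group means of 6.80 ± 0.26 and 7.35 ± 0.26 (SD, n = 2 each) gave a log2 difference of 0.56 (SE 0.20), a ratio of 1.47. Number 1 lay above number 2 by 0.37 among the controls and by 0.36 among the R-SDS samples. Without Control 2 the difference was 0.37 and without R-SDS 1 it was 0.38, both below 0.5. It was 0.74 without Control 1 and also without R-SDS 2.

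**Figure D2:**
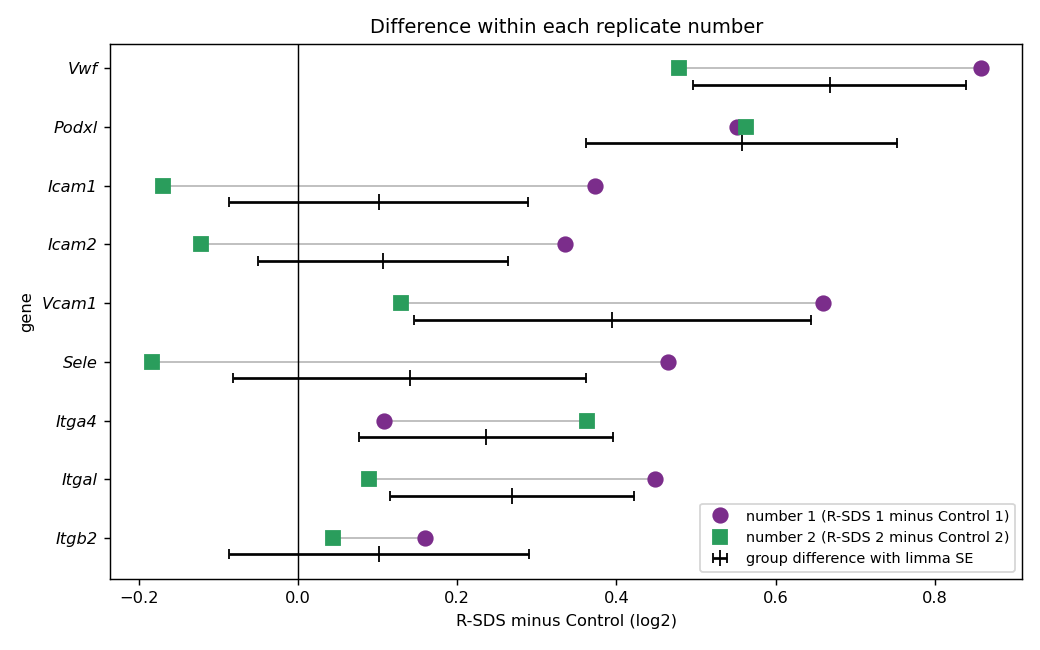
R-SDS minus Control on the log2 scale (horizontal axis) for the 9 measured adhesion genes (vertical axis), with the difference within replicate number 1 as a circle, within number 2 as a square, and below them the group difference with its standard error from limma. For Podxl both numbers stand at about the same place (0.55 and 0.56), whereas Icam1, Icam2 and Sele lie to the right of 0 in number 1 and to the left in number 2.

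Vcam1, the endothelial ligand of VLA-4, was high in 1 sample. It read 7.48 (Control 1), 7.29 (Control 2), 8.14 (R-SDS 1) and 7.42 (R-SDS 2). R-SDS 1 was above the other arrays, while R-SDS 2 lay between the controls. The means were 7.39 ± 0.14 and 7.78 ± 0.51 (SD, n = 2 each). The log2 difference of 0.39 (SE 0.25) had a 95% interval from -0.21 to 1.00 in limma, and the difference was 0.66 within number 1 and 0.13 within number 2. It was 0.03 without R-SDS 1 and 0.76 without R-SDS 2. VCAM-1 is also made by choroid plexus epithelium, whose genes were high on the same array, and their part in this value was not tested. By RT-qPCR in more mice per group, the study reported Vcam1 mRNA significantly higher in susceptible than in control mice.

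Icam1 and Sele, both genes that cytokines induce in endothelium, had their lowest value in Control 1 and similar values elsewhere. Icam1 read 6.02 (Control 1), 6.50 (Control 2), 6.39 (R-SDS 1) and 6.33 (R-SDS 2). Sele read 5.13 (Control 1), 5.77 (Control 2), 5.60 (R-SDS 1) and 5.58 (R-SDS 2). For both genes Control 2 was the highest array, and the R-SDS samples lay between the controls. The controls differed by 0.48 for Icam1 and 0.63 for Sele, and the R-SDS samples by 0.06 and 0.01. The log2 difference between groups was 0.10 (SE 0.19, 95% interval -0.36 to 0.56) for Icam1. It was 0.14 (SE 0.22, 95% interval -0.40 to 0.68) for Sele. The sign depended on the number, with 0.37 for Icam1 and 0.46 for Sele in number 1, but -0.17 and -0.18 in number 2. Without Control 1 the difference was -0.14 for Icam1 and -0.18 for Sele. The study also measured Icam1 by RT-qPCR in more mice per group, and there it was significantly higher in susceptible than in control mice.

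The sequence before the starts of Icam1 and Sele is shown as a description, and its part in their values was not tested. The stretches are the 250 bases before the gene start from RefSeq (GRCm38.p6, plus strand), chr9:21015690-21015939 for Icam1 and chr1:164047984-164048233 for Sele. Capitals mark matches to GGNNNTTCC on either strand, a pattern that covers many binding sites of the inflammatory factor NF-kB.
Icam1: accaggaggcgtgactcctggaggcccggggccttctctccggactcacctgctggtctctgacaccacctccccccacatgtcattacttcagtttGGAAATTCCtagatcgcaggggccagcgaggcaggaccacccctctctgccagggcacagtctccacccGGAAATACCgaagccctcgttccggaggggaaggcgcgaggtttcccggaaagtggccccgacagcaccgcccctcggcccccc
Sele: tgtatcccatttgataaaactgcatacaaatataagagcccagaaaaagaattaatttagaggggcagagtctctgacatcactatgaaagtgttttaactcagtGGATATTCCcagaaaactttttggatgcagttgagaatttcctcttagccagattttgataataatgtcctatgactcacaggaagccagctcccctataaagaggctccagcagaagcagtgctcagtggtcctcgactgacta
Icam1 held the pattern from 153 bases before the start (GGAAATTCC, which reads as a match on both strands) and from 84 bases before it (on the minus strand). Sele held it from 145 bases before the start (GGATATTCC, plus strand). Of 32851 promoters of this length, 15.7% held a match, and a match is a description of letters and not a shown binding site. Promoters of 4 of the 10 genes were in the table used, of which that of Selp held 1 match, from 14 bases before the start on the minus strand, and that of Itga4 had no match in this window.

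Icam2, which endothelium carries also at rest, showed no common direction. It read 5.56 (Control 1), 5.79 (Control 2), 5.90 (R-SDS 1) and 5.67 (R-SDS 2), so that both R-SDS values straddled that of Control 2. The log2 difference was 0.11 (SE 0.16, 95% interval -0.28 to 0.49), with 0.34 within number 1 and -0.12 within number 2. The sign turned without Control 1 (-0.0071) and without R-SDS 1 (-0.0075).

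Among the leukocyte integrin chains, Itga4 and Itgal had non-overlapping groups with narrow gaps. Itga4 read 7.64 (Control 1), 7.72 (Control 2), 7.75 (R-SDS 1) and 8.08 (R-SDS 2). The leukocyte gene Ptprc read from 5.45 to 5.72 on these arrays, and which cells carried the Itga4 signal was not tested. R-SDS 1 was only 0.03 above Control 2, and the log2 difference of 0.24 (SE 0.16) was 0.07 without R-SDS 2. Itga4 and Podxl were the members whose difference was larger within number 2 (0.36 for Itga4) than within number 1 (0.11 for Itga4).

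Itgal, the alpha chain of LFA-1, read 5.23 (Control 1), 5.30 (Control 2), 5.68 (R-SDS 1) and 5.39 (R-SDS 2). R-SDS 2 exceeded the higher control by 0.09. Its log2 difference was 0.27 (SE 0.15), with 0.45 within number 1 and 0.09 within number 2, and it was 0.12 without R-SDS 1. After a further quantile normalisation the groups of Itgal and Itga4 overlapped, and those of Vwf and Podxl still did not.

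Itgb2, the beta chain that LFA-1 shares with other leukocyte integrins, read 6.06 (Control 1), 5.78 (Control 2), 6.22 (R-SDS 1) and 5.82 (R-SDS 2). The arrays numbered 1 were above those numbered 2 in both groups, by a mean of 0.34, and the group difference was 0.10 (SE 0.19, 95% interval -0.36 to 0.56). It was 0.16 within number 1 and 0.04 within number 2, and its sign turned without Control 2 (-0.0381) and without R-SDS 1 (-0.0961).

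**Figure D3:**
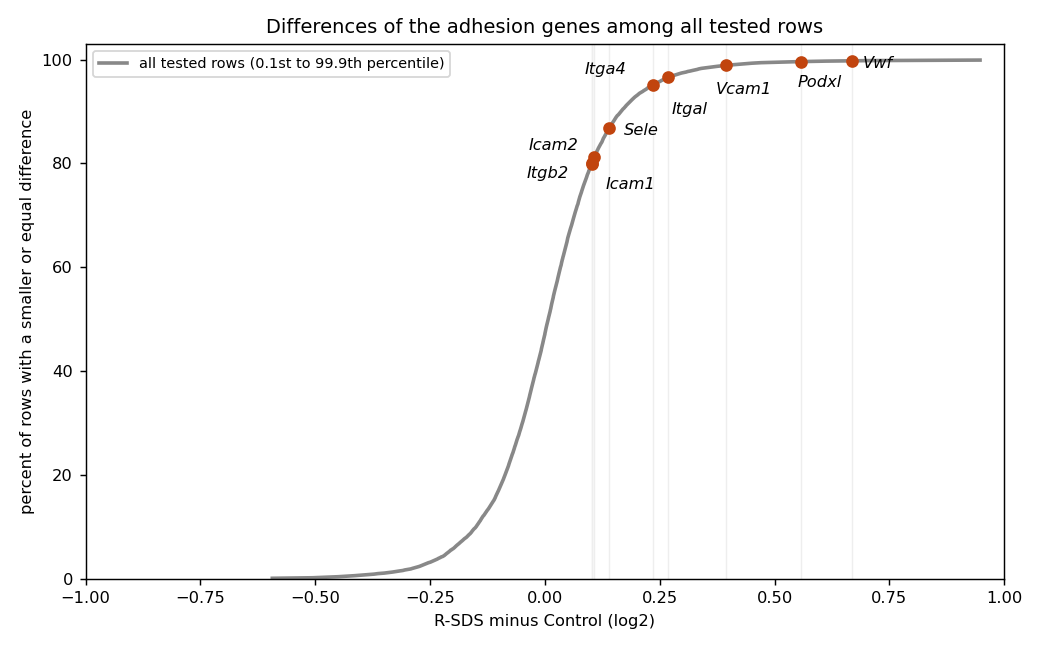
Cumulative distribution of the R-SDS minus Control difference (horizontal axis, log2) over all 21789 tested rows as a grey line (vertical axis, percent of rows with a smaller or equal difference), with the 9 measured adhesion genes as points. All 9 points lie to the right of 0, from 0.10 for Icam1 to 0.67 for Vwf.

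In order of the difference, the genes ran from Vwf (0.67) and Podxl (0.56) through Vcam1 (0.39), Itgal (0.27), Itga4 (0.24) and Sele (0.14) to Icam2 (0.11), Itgb2 (0.10) and Icam1 (0.10). Each step between neighbours in this order was smaller than the standard errors of the genes. Within number 1 the median of the 9 genes was 0.45, and within number 2 it was 0.09, where all rows had 0.0064 and 0.0089. For 7 of the 9 the difference was larger within number 1, and the share of all rows for which this held is not given here. The choroid plexus list had a median difference of 2.26 within number 1 and -0.04 within number 2 (1.36 for Ttr in number 2), and its part in the values of R-SDS 1 was not tested.

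The partners of these molecules were described through lists of other adhesion genes, counted as those higher in both R-SDS samples without overlap beside the 9.41% of all rows. Of 15 measured genes for selectin ligands and the enzymes that glycosylate them, 4 were, and the median difference was 0.0055. B4galt1, a galactosyltransferase, measured 6.85 and 6.75 in the controls and 7.98 in R-SDS 1, but 6.91 in R-SDS 2 (difference 0.64, SE 0.34, and 0.15 within number 2). The sialyltransferase gene St3gal6 differed by 0.25 (SE 0.13), with 0.15 and 0.35 within the numbers. Selplg, the gene of the main P-selectin ligand on leukocytes, differed by 0.0055 (SE 0.14).

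Of the 15 further integrins and integrin regulators, 3 were higher without overlap, with a median difference of 0.07. Itga5, the alpha chain of the fibronectin receptor, had the largest difference (0.36, SE 0.16), and it was 0.62 within number 1 and 0.10 within number 2. Itgae, the alpha chain of an integrin of tissue lymphocytes, differed by 0.19 (SE 0.13). Itgb1, whose product pairs with that of Itga4, differed by 0.07 (SE 0.14), and Itgam, which pairs with Itgb2 on myeloid cells, by 0.10 (SE 0.18). The groups of Itgb1 and Itgam overlapped.

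Of 15 other immunoglobulin-type and junction molecules, 3 were higher and 1 lower without overlap, with a median difference of 0.12. Pvr, the poliovirus receptor gene, differed by 0.26 (SE 0.16). Madcam1, whose product is a vascular addressin of gut vessels, differed by 0.25 (SE 0.22) with overlapping groups. Pecam1 and Cdh5, junction genes of endothelium, differed by 0.17 (SE 0.23) and 0.16 (SE 0.20). Both were highest in R-SDS 1, at 6.88 and 7.63, while R-SDS 2 lay at 6.24 and 7.15. Icam5, a relative of Icam1 in forebrain neurons, measured between 8.88 and 9.07 and differed by 0.03 (SE 0.14).

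The intracellular anchors (ezrin, radixin and moesin genes, their scaffolds and actin-binding proteins) held 1 gene higher and 1 lower without overlap of 10, with a median of 0.07. Ezr, whose product links podocalyxin and ICAMs to actin, measured 8.35, 8.04, 9.09 and 8.03 in Control 1, Control 2, R-SDS 1 and R-SDS 2, a difference of 0.75 within number 1 and -0.0053 within number 2. Msn, the moesin gene, differed by 0.26 and 0.24 within the numbers (0.25 between groups, SE 0.22), with overlapping groups.

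Among genes of storage granules and platelets around VWF, 2 of 14 were higher and 1 lower without overlap, with a median of 0.08. Ppbp, a platelet chemokine gene, gave 4.61 and 4.28 (controls), then 5.48 for R-SDS 1 and 4.96 for R-SDS 2, a difference of 0.78 (SE 0.22), with 0.87 and 0.68 within the numbers. It was the 1 gene of this list past the thresholds of the study. The platelet receptor gene Gp9 differed by 0.28 (SE 0.20), with 0.64 and -0.07 within the numbers, and Gp1ba and Gp1bb were not analysed here. Of the other platelet genes, Itgb3 differed by 0.13 (SE 0.19), Pf4 by 0.04 (SE 0.19), Itga2b by 0.015 (SE 0.13) and Gp5 by -0.0064 (SE 0.13). Their groups overlapped.

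Of 17 measured genes of cytokine signalling to endothelium, 4 were higher without overlap, and the median difference was 0.08. Lrg1, a gene of inflamed venules and liver, measured 5.45 and 5.51 in the controls, 6.56 in R-SDS 1 and 5.67 in R-SDS 2. Its difference was 0.64 (SE 0.29), with 1.11 within number 1 and 0.16 within number 2. The apoptosis inhibitor gene Birc3 differed by 0.26 (SE 0.13) and nearly the same within each number (0.25 and 0.26). The chemokine genes Ccl2 (-0.05, SE 0.19) and Cxcl10 (-0.0046, SE 0.18) had overlapping groups, as did the NF-kB inhibitor gene Nfkbia (0.10, SE 0.18), which stood at 0.38 within number 1 and -0.17 within number 2. None of the genes of these 6 lists had a limma adjusted p under 0.05.

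**Figure D4:**
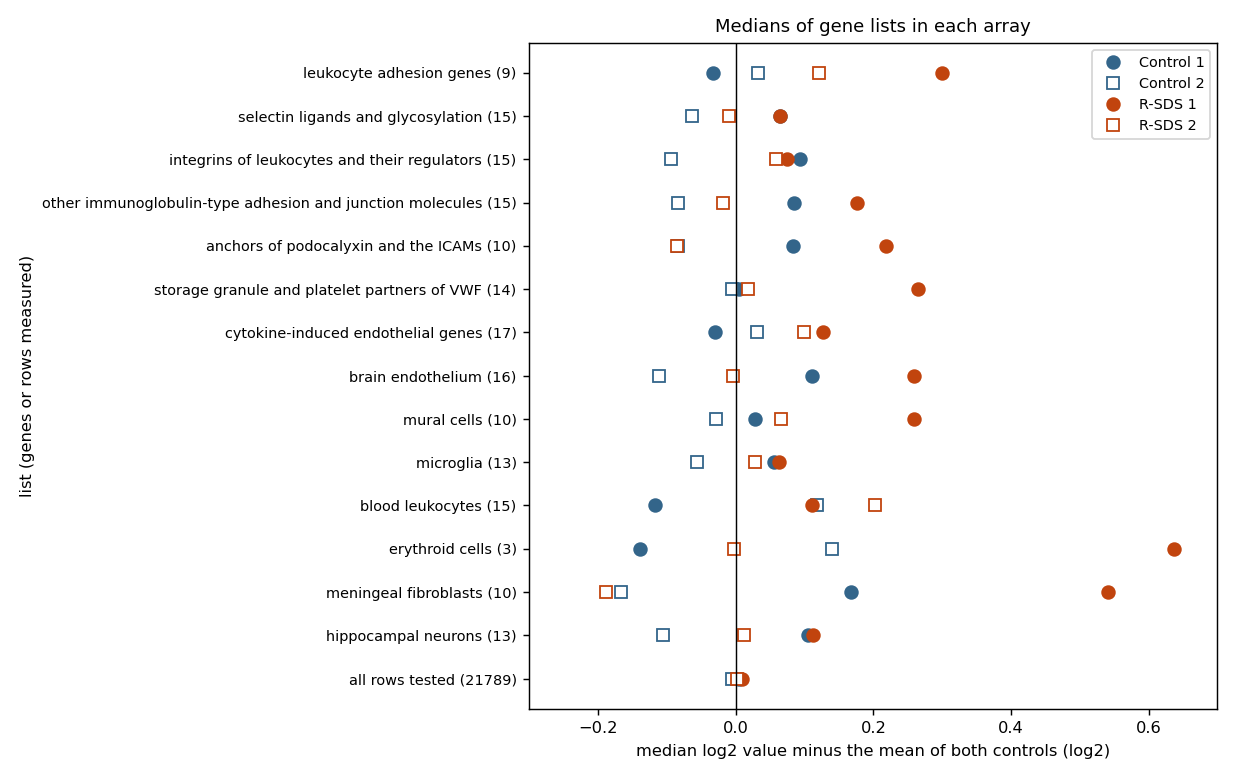
Median log2 value minus the mean of both controls (horizontal axis) for the adhesion genes, 13 gene lists and all tested rows (vertical axis, number measured in brackets) in each array. R-SDS 1 (filled orange) lies at 0.30 for the adhesion genes and R-SDS 2 (open orange) at 0.12, while all rows stay near 0, and the choroid plexus list is left out because its R-SDS 1 value is 2.43.

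Markers of the cells that carry these molecules were set beside them. Of 18 listed brain endothelial genes, 16 were measured, and 5 were higher without overlap, with a median difference of 0.12 (0.13 within number 1 and 0.11 within number 2). Their linear sum was 4045 and 3517 for the controls, and 4758 and 3814 for the stressed samples. Flt1, a VEGF receptor gene, gave 8.07 and 7.74 (Control) and 8.46 and 8.16 (R-SDS) (difference 0.40, SE 0.18). Emcn, a venous and capillary sialomucin gene, measured 6.07 and 5.93 against 6.53 and 6.22 (difference 0.37, SE 0.16). Cldn5, the tight junction gene of brain endothelium, measured 8.33 and 7.97 against 8.14 and 8.06 (difference -0.05, SE 0.16). Of the 16 endothelial genes 12 had a higher mean after defeat, as did 52.85% of all rows. Lower without overlap were 0 of them and 9.06% of all rows. The part of vessel content in the differences of Vwf and Podxl was not tested.

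Of 10 mural cell genes 4 were higher without overlap (median 0.13, sums of 1691 and 1498 against 1999 and 1694), led by Abcc9 (0.35, SE 0.15) and Acta2 (0.34, SE 0.16). Of 13 measured microglial genes 3 were higher and 1 lower without overlap (median 0.03, sums of 3137 and 2919 against 3337 and 3141). Cx3cr1, the microglial fractalkine receptor gene, measured 8.15 and 8.14 in the controls and again 8.15 and 8.14 after defeat. The complement gene C1qb differed by 0.16 (SE 0.14) and Fcrls by 0.23 (SE 0.19).

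Leukocyte genes were dim, with a mean log2 value of 4.28 to 4.58 per array. Of 15 measured genes 3 were higher without overlap, with a median of 0.11 (0.19 within number 1 and -0.09 within number 2) and sums of 356 and 430 in the controls against 433 and 425. Ptprc, the pan-leukocyte CD45 gene, measured 5.45 and 5.56 against 5.52 and 5.72, a difference of 0.11 (SE 0.14). The neutrophil gene S100a8 stood at 4.89 in R-SDS 1 and at 3.67, 4.26 and 4.17 in Control 1, Control 2 and R-SDS 2. S100a9 was also highest in R-SDS 1 (5.94), while the neutrophil genes Ly6g (3.52) and Camp (4.80) were lowest there. Elane (5.28) and Ngp (3.91) were highest in Control 2, and Mpo (5.27) in R-SDS 2. The natural killer cell gene Klrb1c differed by 0.38 (SE 0.15) near the lower end of the scale. Of 8 erythroid genes 3 were measured, with sums of 389.5 and 394 in the controls, 548 in R-SDS 1 and 389.5 in R-SDS 2. Among them Alas2 differed by 1.75 within number 1 and -0.14 within number 2, and Slc4a1 by 0.81 and 0.03, while Bpgm differed by 0.01 (SE 0.13) between the groups. R-SDS 1 held the highest value for 6 of the 9 adhesion genes (Vwf, Podxl, Vcam1, Icam2, Itgb2 and Itgal). The share of all rows highest in R-SDS 1 is not given here. Relative to the control mean, the leukocyte list had a median of 0.11 for R-SDS 1 against 0.20 for R-SDS 2, and the erythroid list had 0.64 against -0.0022. The part of blood in the dissected tissue was not tested.

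The 10 meningeal fibroblast genes had a median of 0.54 above the control mean in R-SDS 1 and -0.19 in R-SDS 2, with Dcn at 0.25 (SE 0.14) and Islr at 0.25 (SE 0.40) between the groups. Of the 12 choroid plexus genes 3 were higher without overlap. Ttr, the transthyretin gene, measured 11.38, 7.43, 13.21 and 8.79 in Control 1, Control 2, R-SDS 1 and R-SDS 2, and the channel gene Kcnj13 measured 7.34, 5.83, 10.75 and 5.56. The groups of both overlapped, with differences of 1.60 (SE 1.70) and 1.57 (SE 1.56), and Aqp1 was the 1 gene of this list past the thresholds of the study. The hippocampal neuron list had a median difference of 0.05, with 2 of 13 genes higher without overlap. Its largest differences were those of Dsp (0.39, SE 0.22) and C1ql2 (0.39, SE 0.18), both genes of the dentate gyrus. Prox1 and Calb1, also expressed there, differed by 0.03 (SE 0.14) and 0.04 (SE 0.14) with overlapping groups.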

How the data were processed

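Total RNA of dissected hippocampus was hybridised to Affymetrix Mouse Gene 1.0 ST arrays, 1 per sample. The sources name different labelling kits. The deposited table holds log2 values, which the authors obtained by RMA (Affymetrix Expression Console). For the genome build, nothing is given in the sources used here. Of 35556 rows, 21789 had 1 symbol in the platform annotation, 1621 had several and 12146 were not listed. Identifiers matched RefSeq (GRCm38.p6) for 99.6% of tested rows, and 0 symbols changed.

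Groups and replicate numbers came from the sample titles. The methods speak of 2 R-SDS mice, and nothing further says that samples were separate animals, so the p-values may measure technical spread only. R-SDS and Control were compared on all tested rows with limma 3.58.1 in R 4.3.3 (lmFit and eBayes, no block, no filter), two-sided, with Benjamini-Hochberg adjustment over all rows, and calls were made at 0.05. Alternatives were other scalings, a replicate block, a prior with trend, a filter on dim rows and leaving out each array. The moderated standard errors rest on 2 residual degrees of freedom and 4.07 from the prior. The methods' t-test is Student's unpaired test on the same values. The number of arrays limits the precision, and no depth exists.

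The members and the 14 lists of 197 genes (178 measured) were chosen with earlier results of these data known, and no test was run on a list. Named genes are the members, the 2 genes with the largest differences of each list, and 15 fixed genes, 1 of which is not reported here. Aqp1, Bpgm, Pf4, Itga2b, Itgb3, Gp5, S100a9, Ly6g, Camp, Elane, Ngp, Mpo, Prox1 and Calb1 were named after their values were seen. Only the 250 bases before a start were searched and printed. Figures were drawn with matplotlib 3.10.9.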

Additional observations from a re-analysis of the deposited data

How the results depend on the processing

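With 4 arrays and no detection call, small differences could not be told from the spread between samples, and exceeding the standard error was not enough. The differences of Vcam1, Itga4 and Itgal exceeded theirs, yet their limma intervals held both signs. These ran from -0.21 to 1.00 (Vcam1), -0.15 to 0.63 (Itga4) and -0.11 to 0.64 (Itgal). The unadjusted intervals of Vwf and Podxl were positive throughout, but no member had an adjusted p under 0.05. A further quantile normalisation and a shift of the arrays to a common median left the direction of all 9 members. Each value was within 1 SD between replicates of the value as reported. These scalings moved the median of all rows by 0.0062 and 0.0167. The shift adds the same amount to every difference, so it could not turn members that were all positive. The mean of all rows of a gene and a replicate block could not change a difference either. Each gene had 1 row, and each number held 1 array of each group. The number of members without overlap was 2 after quantile normalisation (Vwf and Podxl) and 4 to 7 without single arrays, with 7 without Control 2 and 7 without R-SDS 2. With an array left out, groups are less likely to overlap for any row. The share over all rows under these settings is not given here, so nothing is read from these counts. Leaving out single arrays turned the sign of 6 of 36 member values (Icam1 and Sele without Control 1, Icam2 without Control 1 and without R-SDS 1, Itgb2 without Control 2 and without R-SDS 1).

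Over all rows, 32 were higher and 42 lower at the thresholds of the study with the p of limma. Both numbers were below those the study itself reported for R-SDS, and so were those of the methods' t-test given next. The counts were 54 higher with the replicate block, 6 higher and 13 lower with the methods' t-test, 21 higher and 6 lower among rows above the lower quartile, and 74 to 416 higher and 67 to 323 lower without single arrays. At the adjusted p, 1 row was called after the shift to a common median and 0 to 49 without single arrays (2 without R-SDS 1 and 49 without R-SDS 2), and 0 under the other settings, limma with trend included. Without an array, the lone sample of its group is assumed to vary like the other group. Deviations from the group means correlated at 0.517 between arrays of the same number, but 2 numbers are too few to call the arrays paired. With the block in limma, 2 members had an unadjusted p under 0.05, and the smallest adjusted p of a member was 0.960. The share of all rows at that unadjusted p with the block is not given here. List medians kept their direction in all 28 values under the other scalings. For the shift to a common median this was fixed, as the list medians were all positive. Without single arrays, 13 of 56 changed sign.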
